A study of Mus musculus with 4 samples.

Results

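Urocortin 2 (Ucn2) and 8 other genes for secreted peptide hormones, namely Adm, Pthlh, Nppc, Edn1, Edn3, Agt, Apln and Gnrh1, were described by cell class in the mouse sciatic nerve. The genes were taken by name from the deposited count tables, as 9 of the 22716 genes listed in any of them, and all 9 had a row in every table except Ucn2, which had no row in the uninjured nerve table and was counted there as 0. Single cells of wildtype CD1 mice, dissociated with collagenase and trypsin, had been profiled by Drop-seq, a droplet method that counts unique molecular identifiers (UMIs). The 4 libraries were the distal nerve segment of adults 3 days post-injury (3 DPI), in which the nerve had been resected, the uninjured adult nerve, the neonatal nerve at P3-P4 sorted by FACS, and the neonatal nerve at P2-P3. All but the sorted library had been cleared of myelin debris with myelin removal beads, so the preparations of the neonatal nerve differed in method and in age. The set was chosen by earlier results on these libraries, namely where the genes were detected, so its values are descriptions. Each group was 1 library from an unstated number of mice, so no condition was tested, and the intervals given here are 95% intervals for counting error only.

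Peptide hormones are made as longer precursors, cut by proprotein convertases and secreted, and most act on receptors coupled to G proteins on nearby cells. Urocortin 2 belongs to the corticotropin-releasing factor family and acts mainly through the receptor Crhr2. Adrenomedullin (Adm), C-type natriuretic peptide (Nppc), the endothelins (Edn1, Edn3), angiotensinogen (Agt) and apelin (Apln) are best known from blood vessels, where they widen or narrow the lumen or guide vessel growth. Parathyroid hormone-like hormone (Pthlh) acts on cartilage, bone and smooth muscle, endothelin 3 is needed by neural crest cells, and gonadotropin-releasing hormone 1 (Gnrh1) is the hypothalamic signal for the pituitary. In peripheral nerve, Schwann cells, endothelial cells, pericytes and the fibroblast-like mesenchymal cells of the endoneurium, perineurium and epineurium lie close together.

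After filtering, 2158 cells remained at 3 DPI, 1830 in the uninjured nerve, 2188 in the sorted neonatal library and 5351 in the bead-treated neonatal library, with medians of 1804, 1636, 1567 and 991 UMIs per cell. Clusters were named from marker genes, and the suffix "-like" marks that the names were rebuilt. The cells at 3 DPI fell into 140 that were Schwann-like, 272 endoneurial-like, 912 other mesenchymal-like, 247 endothelial-like, 77 like vascular smooth muscle or pericytes (VSM/pericyte-like) and 510 immune-like. "Other mesenchymal-like" means the mesenchymal-like clusters outside the endoneurial-like one. At 3 DPI these were an epineurial-like cluster led by Clec3b, C3 and Pi16, a cluster led by Cilp, Angptl1 and Sfrp1 and a dividing cluster led by Top2a, and in the uninjured nerve they were 2 epineurial-like clusters and 1 perineurial-like cluster. The neonatal endoneurial-like cluster also carried perineurial markers. The uninjured and bead-treated neonatal libraries held 14 and 38 immune-like cells, too few to describe. No 2 libraries shared more than 3 cell barcodes.

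The promoters of the genes are given first, because 5 members were found at their highest share in the endoneurial-like cells at 3 DPI and Edn1 had the most UMIs in both adult nerves. RefSeq promoters of build GRCm38.p6, running from 250 bases before to 50 bases after the start, were at hand for 7 of the 9 members. Both strands were searched for TATAAA, a core promoter element, for TGANTCA, a core bound by AP-1, and for ACGTG, which like GCGTG is a core bound by hypoxia-inducible factors. Matches stand in capitals below, and a match is a description of letters only. Adm (chr7:110627407-110627706, plus strand), Pthlh (chr6:147263964-147264263, minus strand), Agt (chr8:124569657-124569956, minus strand) and Edn1 (chr13:42301226-42301525, plus strand) read as follows.
Adm: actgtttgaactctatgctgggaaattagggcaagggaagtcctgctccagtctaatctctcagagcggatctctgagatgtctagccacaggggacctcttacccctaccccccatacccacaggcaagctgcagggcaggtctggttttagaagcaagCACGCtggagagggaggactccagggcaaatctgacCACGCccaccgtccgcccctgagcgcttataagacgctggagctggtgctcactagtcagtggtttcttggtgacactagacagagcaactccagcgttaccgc
Pthlh: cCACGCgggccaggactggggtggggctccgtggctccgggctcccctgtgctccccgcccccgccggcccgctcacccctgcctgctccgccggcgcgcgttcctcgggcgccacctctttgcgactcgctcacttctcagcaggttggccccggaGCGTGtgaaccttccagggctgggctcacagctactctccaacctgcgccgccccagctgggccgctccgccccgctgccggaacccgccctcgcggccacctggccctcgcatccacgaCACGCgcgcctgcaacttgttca
Agt: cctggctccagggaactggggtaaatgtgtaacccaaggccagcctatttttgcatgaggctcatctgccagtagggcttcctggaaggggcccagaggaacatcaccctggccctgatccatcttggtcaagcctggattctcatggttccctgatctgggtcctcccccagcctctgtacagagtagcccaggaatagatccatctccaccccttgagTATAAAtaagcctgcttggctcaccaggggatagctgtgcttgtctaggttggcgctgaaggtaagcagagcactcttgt
Edn1: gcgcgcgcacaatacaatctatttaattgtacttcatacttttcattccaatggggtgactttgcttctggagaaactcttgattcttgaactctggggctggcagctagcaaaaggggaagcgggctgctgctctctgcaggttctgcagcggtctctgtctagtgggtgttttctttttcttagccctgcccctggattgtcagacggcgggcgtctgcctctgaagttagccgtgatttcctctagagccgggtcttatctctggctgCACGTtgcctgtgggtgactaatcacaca
Adm held GCGTG at 2 places, Pthlh at 3 places and Nppc at 1, each read on one strand or the other, while 32.4% of all 32851 promoters held it. Edn1 alone among the 7 held ACGTG, found in 19.6% of all promoters. TATAAA began 30 bases before the start in Agt and 29 bases before it in Nppc, and 13.6% of all promoters held it. TGANTCA was in none of the 7 and in 7.81% of all. The windows of Edn3 and Apln held no match to any of the 4 motifs.

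Ucn2 was found almost entirely in the Schwann-like cells of the injured nerve. The gene is a single exon on chromosome 9 (GRCm38, 108986010 to 108987164, plus strand). At 3 DPI, 38 of 140 Schwann-like cells (27.1%, 19.98 to 35.3%) held at least 1 Ucn2 UMI, and their class gave 109 of the library's 114 Ucn2 UMIs, or 95.6%, from 6.49% of its cells. Outside that class, Ucn2 was met in 2 endoneurial-like, 1 other mesenchymal-like and 1 immune-like cell, the last being 0.196% of a class with a median of 897 UMIs per cell against 1946 in the Schwann-like cells. In cells thinned to 500 UMIs the shares were 8.87% in Schwann-like, 0.397% in endoneurial-like, 0.242% in immune-like and 0% in other mesenchymal-like cells. In the uninjured nerve none of 357 Schwann-like cells held a UMI, which, taking 3 cells as the limit that a count of 0 allows, leaves a share of up to 0.84%. None of 1217 did in the sorted neonatal library, and 3 of 3610 did in the bead-treated one, all of them in the cluster led by Pou3f1, Cdkn1c and Ntm.

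On the scale of counts per 1000000 UMIs of the class (CPM), Ucn2 stood at 243 (199 to 293) in the 3 DPI Schwann-like cells. This was at least 33.5-fold higher than in uninjured Schwann-like cells and at least 176-fold higher than in sorted neonatal ones, setting each count of 0 to 3 UMIs over the class. Against the bead-treated neonatal cells, with 4 UMIs, the ratio was 238 (90.4 to 889). When every cell was thinned to 500 UMIs, 11 of 124 Schwann-like cells at 3 DPI (8.87%) still held Ucn2, and none of 340 uninjured ones did. The uninjured class joined 277 non-myelinating-like and 80 myelinating-like cells, whereas the injured class was 1 cluster.

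Ucn2 was spread over the Schwann-like cells and was not the product of a single cell: 23 of the 38 positive cells held at least 2 UMIs, and the richest held 18, or 16.5% of the class total. The positive cells were deeper, with a median of 3859 UMIs against 1611 in the other 102, and shares of other genes are read with that gap in mind. Btc, an EGF family ligand, was found in 78.9% of Ucn2-positive and 49.0% of Ucn2-negative Schwann-like cells, and Gdnf, a neurotrophic factor, in 36.8% and 16.7%. Shh was found in 23.7% and 4.90%. In contrast, the cell cycle genes Top2a and Mki67 were both at 18.4% in the positive cells and at 20.6% and 22.5% in the negative ones, and the myelin gene Mbp was at 13.2% and 13.7%. None of the 38 cells held Adm, Pthlh, Nppc, Edn1, Agt or Apln. These genes were rare in the other 102 cells as well, found in 2, 3, 0, 2, 1 and 0 cells. No difference between the positive and negative cells is read from these counts.

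Across 22 profiles (each class in each library) and 13249 genes, the genes whose log2 levels were most like Ucn2 were Btc (r = 0.976), Syt4 (r = 0.969) and Gdnf (r = 0.932). Of the 118 Ucn2 UMIs over these profiles, 109 lay in the 3 DPI Schwann-like profile, so the coefficients rest mainly on that profile. The profiles also share libraries and depths, so the coefficients are descriptions. A list of 16 genes for injured Schwann cells was drawn up with earlier results of these data known, so its counts are descriptions as well. Of the 16, 14 could be compared between 3 DPI and uninjured Schwann-like cells. Among them 10 were at least 3-fold higher and 3 at least 3-fold lower (10.1% and 8.64% of all genes). Their median log2 difference was 3.42, against 0.11 over all genes. The lower ones included Jun. Jun, an immediate early gene known to respond to tissue dissociation as well as to nerve injury, stood at 2091 CPM at 3 DPI and 8449 in the uninjured Schwann-like cells, and at 1996 and 9814 CPM in the endoneurial-like cells, and its part in the levels of the members was not tested. Col7a1 ends 1135 bases upstream of Ucn2 on the same strand. It stood at 11.1 CPM in the 3 DPI Schwann-like cells. Pfkfb4, a gene of glucose metabolism, starts 4614 bases downstream on the same strand and was in 12.1% of those cells at 71.3 CPM, and in 0.84% of uninjured ones at 7.25 CPM. Whether transcripts of either neighbour gave Ucn2 UMIs was not tested.

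**Figure D1:**
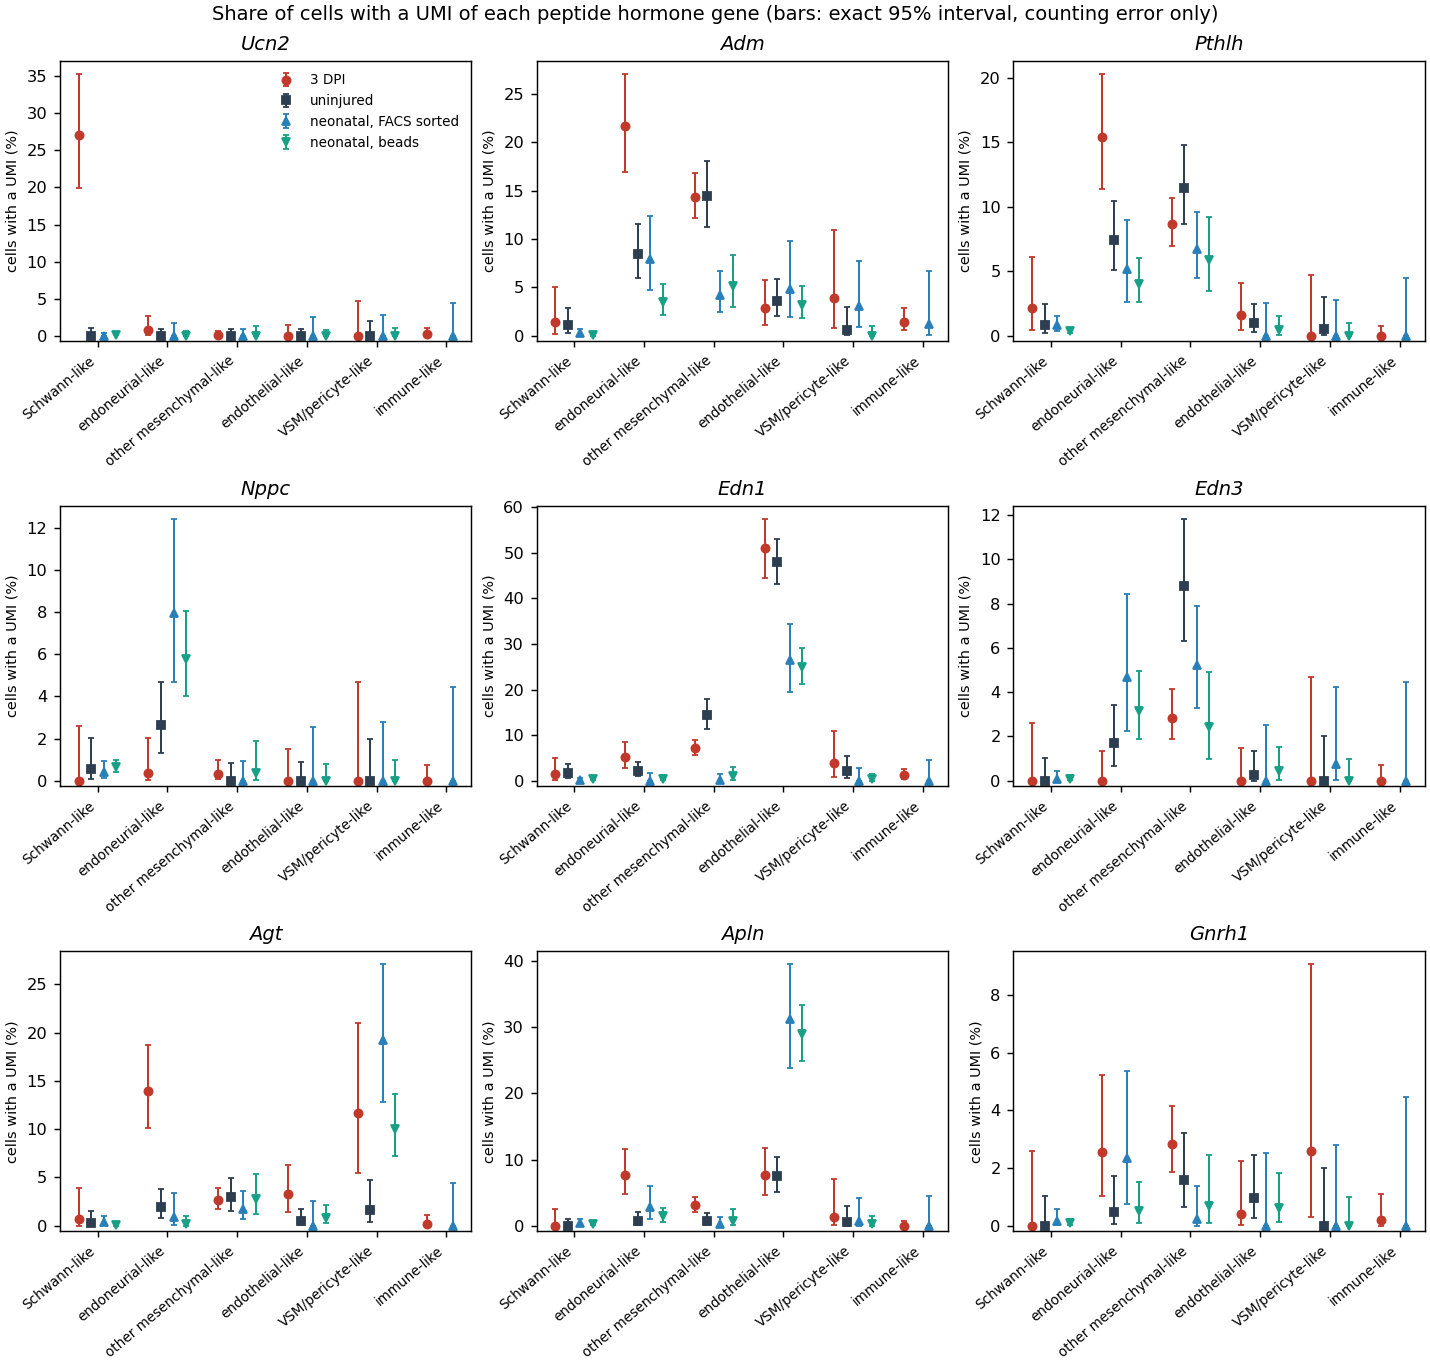
Share of cells with at least 1 UMI (percent, vertical axis) of each of the 9 genes in each class, with 1 symbol per library and bars for the exact 95% interval. Ucn2 stands at 27.1% in the 3 DPI Schwann-like cells and near 0 elsewhere, Edn1 and Apln peak in endothelial-like cells, and most other members lie highest in the mesenchymal-like classes.

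By class, 6 of the 9 members reached 2% of cells in the 3 DPI endoneurial-like cells, as did 53.3% of all genes listed. The count was 7 for the other mesenchymal-like class (51.5% of all genes), 4 for the endothelial-like (54.1%), 4 for the VSM/pericyte-like (47.1%), 2 for the Schwann-like (49.3%) and 0 for the immune-like class (33.5%). A mesenchymal-like class held the highest share of 7 of the 9 members at 3 DPI, 6 in the uninjured nerve, and 5 in each neonatal library. How many of all genes were highest in such a class was not counted, so no trait of the members is read from these counts. In the injured nerve the 7 were 5 members in endoneurial-like cells (Adm, Pthlh, Nppc, Agt and Apln) and 2 in the other mesenchymal-like cells (Edn3 and Gnrh1). For Apln (7.72% against 7.69% in endothelial-like cells), Nppc (0.368% against 0.329% in the other mesenchymal-like cells), Agt (14.0% against 11.7% in VSM/pericyte-like cells) and Gnrh1 (2.85% against 2.60% in VSM/pericyte-like cells), the next class lay within the interval of the first. Endoneurial-like cells at 3 DPI were also the deepest class, with a median of 4662 UMIs, so the order was read on CPM as well, by which 5 members were highest in a mesenchymal-like class.

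Adm (chromosome 7, 110627661 to 110629820, plus strand, 4 exons) was found mainly in mesenchymal-like cells of both adult nerves, and the mesenchymal-like class in which it was highest differed between them. At 3 DPI, Adm was found in 59 of 272 endoneurial-like cells (21.7%, 16.9 to 27.1%) at 102 CPM (86.3 to 119), and in 131 of 912 other mesenchymal-like cells (14.4%) at 65.3 CPM (57.1 to 74.4). In the uninjured nerve it stood at 8.41% and 53.6 CPM (40.6 to 69.4) in endoneurial-like cells, and at 14.4% and 104 CPM (84.6 to 126) in the other mesenchymal-like cells. Thus the level in endoneurial-like cells was 1.90-fold (1.39 to 2.62) of the uninjured one, whereas that in the other mesenchymal-like cells was 0.63-fold (0.50 to 0.80). The latter class joined different clusters in the adult libraries, so its ratio cannot be told apart from a difference in composition. Neonatal endoneurial-like cells, whose cluster also carried perineurial markers, held less, at 28.3 CPM in the sorted and 24.1 CPM in the bead-treated library. Immune-like cells at 3 DPI held Adm in 1.37% of cells, at 11.9 CPM and a median depth of 897 UMIs. In cells thinned to 500 UMIs the 3 DPI shares were 4.76% in endoneurial-like, 3.72% in other mesenchymal-like and 1.45% in immune-like cells. Endothelial-like cells, a known source of adrenomedullin in other tissues, held it in 2.83% of cells at 3 DPI and 3.61% in the uninjured nerve. At 3 DPI their level of 6.26 CPM did not exceed that of the immune-like cells and their thinned share was 0%, so no expression is read from it.

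Pthlh (chromosome 6, 147252101 to 147264183, minus strand) was, like Adm, found mainly in mesenchymal-like cells of the adult nerves. It was in 15.4% (11.4 to 20.3%) of endoneurial-like cells at 3 DPI and 7.45% of uninjured ones, at 49.9 CPM (39.3 to 62.6) and 34.8 CPM (24.5 to 47.9), and the ratio of 1.44 (0.96 to 2.19) had an interval that included 1. In cells thinned to 500 UMIs the shares were 1.98% and 2.92%, the opposite order, so no direction is read. In the other mesenchymal-like cells Pthlh was at 31.8 CPM (26.1 to 38.3) at 3 DPI and 101 CPM (81.9 to 122) in the uninjured nerve, a ratio of 0.32 (0.24 to 0.42). Within that class the uninjured perineurial-like cluster had the highest level, with 13 of 67 cells (19.4%) and 201 CPM. No perineurial-like cluster was named at 3 DPI, so a change of level cannot be told apart from this difference in composition. No immune-like cell of 510 held Pthlh, which allows up to 0.588%.

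Nppc (chromosome 1, 86666291 to 86670571, minus strand) was rare in the 3 DPI library. Its UMIs were found in 1 endoneurial-like and 3 other mesenchymal-like cells at 3 DPI, 1 UMI in each. In the uninjured nerve it was in 11 of 416 endoneurial-like cells (2.64%) with 22 UMIs, and no UMI was seen in the other mesenchymal-like cells. Of the 22 UMIs, 7 (31.8%) came from 1 cell. The 3 DPI level in endoneurial-like cells, from 1 UMI, was 0.03-fold (0.00078 to 0.20) of the uninjured level, although the injured cells were the deeper ones. This ratio holds for the 3 DPI library only. The paper joined such cells with injured cells of a later time point. It listed Nppc in a larger share of injured than of uninjured endoneurial cells. In the neonatal libraries Nppc was in 7.94% (sorted) and 5.80% (bead-treated) of endoneurial-like cells, at 24.4 and 49.3 CPM, and 24 of 3610 bead-treated Schwann-like cells also held it. Its nearest profile was that of Col9a2 (r = 0.924 over 22 profiles), a cartilage collagen gene.

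Edn1 (chromosome 13, 42301476 to 42307990, plus strand, 5 exons) was highest in the endothelial-like cells of every library and had the most UMIs of any member in both adult nerves. At 3 DPI it was found in 126 of 247 endothelial-like cells (51.0%, 44.6 to 57.4%) at 749 CPM (699 to 802), and in the uninjured nerve in 200 of 416 (48.1%, 43.2 to 53.0%) at 1180 CPM (1122 to 1241). By shares of cells thinned to 500 UMIs, 28.0% and 30.6%, the adult libraries lay closer together. The neonatal levels were lower, at 231 CPM in the sorted and 246 CPM in the bead-treated library. The injured level was therefore 0.63-fold (0.58 to 0.69) of the uninjured one and 3.24-fold (2.60 to 4.10) and 3.05-fold (2.64 to 3.53) of the neonatal ones. The uninjured class joined several clusters and the 3 DPI class was a single cluster, so the adult ratio cannot be told apart from a difference in composition. Endothelial-like cells gave 84.0% of the Edn1 UMIs at 3 DPI and 93.1% in the uninjured nerve. Their clusters differed in the uninjured nerve, with Edn1 in 79.3% of cells of the cluster led by Slco1a4, Spock2 and Slc39a8, 52 of 130 cells of that led by Selp and 21.3% of that led by Rbp7 and Gpihbp1, and the 3 intervals did not overlap.

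A second site of Edn1 was an epineurial-like cluster. In the uninjured nerve, the cluster led by Pi16, Cxcl13 and Smpd3 held Edn1 in 38 of 92 cells (41.3%, 31.1 to 52.1%), compared with 8.77% (5.76 to 12.7%) of the other epineurial-like cluster, led by Comp. At 3 DPI the epineurial-like cluster with Clec3b and Pi16 among its leading genes held it in 46 of 259 cells (17.8%), the Top2a-led cluster in 5.81% and the Cilp-led cluster in 2.01%. In neonatal nerve, by contrast, 1 of 402 (sorted) and 3 of 290 (bead-treated) other mesenchymal-like cells held Edn1. Immune-like cells at 3 DPI stood at 1.18%.

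Edn3 (chromosome 2, 174760619 to 174784042, plus strand) was found in the other mesenchymal-like cells and lay apart from Edn1 within them. It was in 26 of 912 such cells at 3 DPI (2.85%, 1.87 to 4.15%) at 13.9 CPM, and in no cell of any other class there. In the uninjured nerve it was in 39 of 444 (8.78%, 6.32 to 11.8%) at 73.7 CPM, so that the injured level was 0.19-fold (0.13 to 0.27) of the uninjured one. The class joined different clusters in the adult libraries, so a change of level cannot be told apart from a difference in composition. The Comp-led uninjured cluster held Edn3 in 11.6% of cells and the perineurial-like cluster in 8.96%, while the Pi16-led cluster with the high Edn1 share held none in 92 cells, which allows up to 3.26%. In neonatal nerve both mesenchymal-like classes held Edn3, the endoneurial-like cells at 4.67% and 3.16% and the others at 5.22% and 2.41% in the sorted and bead-treated libraries. None of 272 endoneurial-like cells at 3 DPI did, although they were deeper, and their level was at least 8.37-fold and at least 12.6-fold lower than in the sorted and bead-treated neonatal cells. The neonatal cluster also carried perineurial markers, so a difference in level cannot be told apart from composition.

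**Figure D2:**
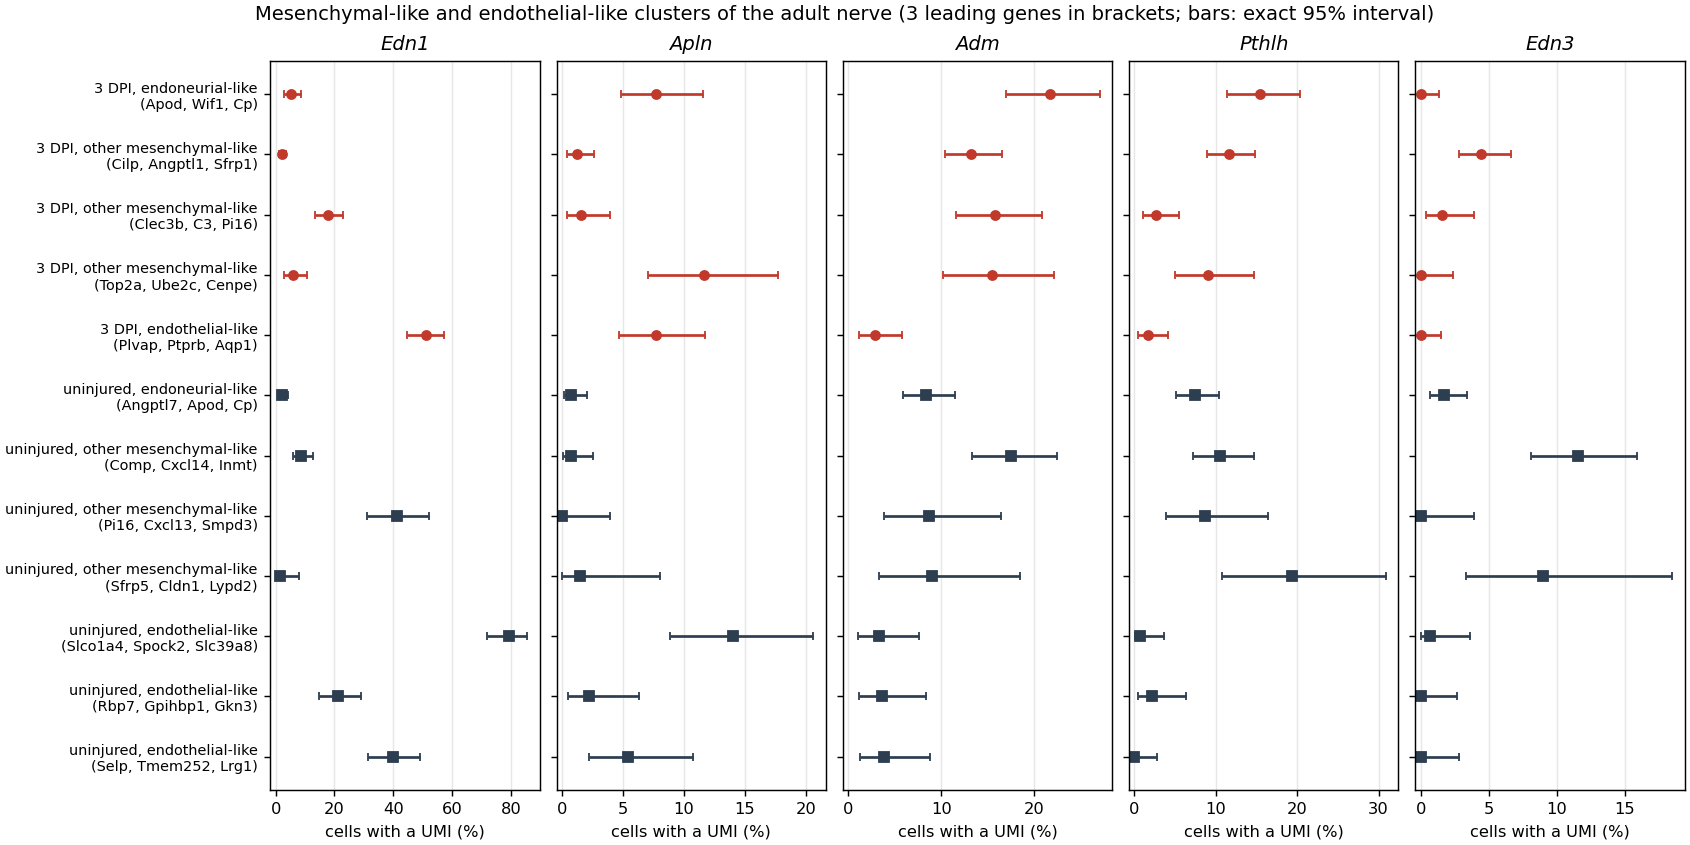
Share of cells with a UMI (percent, horizontal axis) of Edn1, Apln, Adm, Pthlh and Edn3 in each mesenchymal-like and endothelial-like cluster of the 3 DPI and uninjured nerve, with exact 95% intervals as bars. Edn1 reaches 79.3% in 1 uninjured endothelial-like cluster and 41.3% in the Pi16-led epineurial-like cluster, where Edn3 is at 0, and Apln reaches 11.6% in the Top2a-led cluster at 3 DPI.

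Agt (chromosome 8, 124556534 to 124569706, minus strand), the precursor of the angiotensins, was found in endoneurial-like and VSM/pericyte-like cells at 3 DPI and mostly in VSM/pericyte-like cells of the neonatal nerve. At 3 DPI it was in 38 of 272 endoneurial-like cells (14.0%, 10.1 to 18.7%) at 47.9 CPM (37.5 to 60.4), compared with 8 of 416 uninjured ones (1.92%) at 8.46 CPM (3.87 to 16.1), a ratio of 5.67 (2.83 to 12.9). It was also in 9 of 77 VSM/pericyte-like cells at 3 DPI (11.7%, 5.49 to 21.0%) at 43.9 CPM and in 3 of 183 uninjured ones at 11.9 CPM, with a ratio of 3.69 whose interval of 0.95 to 20.8 included 1. In endothelial-like cells 12 UMIs stood against 3, a ratio of 4.69 (1.27 to 25.9), but the positive cells at 3 DPI had a median of 12101 UMIs against 1919 in the rest, and none of 211 cells thinned to 500 UMIs held Agt. The other mesenchymal-like cells were at 0.39-fold (0.23 to 0.66) of the uninjured level, but 11 of the 27 uninjured UMIs (40.7%) came from 1 cell, and the shares of 2.63% at 3 DPI and 2.93% in the uninjured nerve lay close together, so no direction is read. In neonatal nerve, Agt was mostly in VSM/pericyte-like cells, at 194 CPM (146 to 252) in the sorted and 114 CPM (85.6 to 148) in the bead-treated library, and endoneurial-like cells held 2 UMIs and 1 UMI. The Agt-positive endoneurial-like cells at 3 DPI had a median of 9076 UMIs against 3505 in the rest, and the thinned shares were 1.59% at 3 DPI and 0.487% in the uninjured nerve. The thinned share of VSM/pericyte-like cells at 3 DPI was 2.82%, from 2 of 71 cells.

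Apln (chromosome X, 48025146 to 48034853, minus strand) showed a wide contrast between adult and neonatal endothelial-like cells. It was in 45 of 144 sorted (31.3%, 23.8 to 39.5%) and 138 of 476 bead-treated (29.0%, 25.0 to 33.3%) neonatal endothelial-like cells, at 435 CPM (370 to 507) and 343 CPM (308 to 381). The adult shares were 7.69% at 3 DPI and 7.45% in the uninjured nerve, at 32.2 CPM (22.6 to 44.6) and 46.6 CPM (35.6 to 59.8), and the adult ratio of 0.69 (0.44 to 1.06) had an interval that included 1. Both neonatal preparations lay above both adult libraries with no overlap of the intervals, and the injured level was 0.07-fold (0.05 to 0.11) and 0.09-fold (0.06 to 0.13) of the neonatal ones. The Apln-positive endothelial-like cells at 3 DPI had a median of 8558 UMIs against 1877 in the rest, and none of 211 thinned cells held Apln. The thinned shares were 1.71% in the uninjured, 17.4% in the sorted neonatal and 13.8% in the bead-treated neonatal library. The neonatal libraries thus stayed above the adult ones, and no order of the adult libraries is read. Outside the endothelium, Apln was in 21 of 272 endoneurial-like cells (7.72%) at 3 DPI and 3 of 416 in the uninjured nerve, a ratio of CPM of 5.43 (1.64 to 28.3), and in the other mesenchymal-like cells the ratio was 3.58 (1.13 to 18.1). Of the latter, the Top2a-led cluster held it in 18 of 155 cells (11.6%). Endothelial-like cells gave 37.1% of the library's Apln UMIs at 3 DPI and 89.7%, 91.5% and 93.0% in the uninjured, sorted neonatal and bead-treated neonatal libraries. These shares depend on class size as well: the class was 11.4% of the cells at 3 DPI and 22.7%, 6.58% and 8.90% in those libraries. None of the 510 immune-like cells held it.

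Gnrh1 (chromosome 14, 67745181 to 67749439, plus strand) was at the limit of detection. It was in 26 of 912 other mesenchymal-like cells at 3 DPI (2.85%) and 7 of 444 uninjured ones (1.58%), at 8.09 and 7.97 CPM, a ratio of 1.02 (0.45 to 2.58). Of the 37 positive cells at 3 DPI, 35 held a single UMI. Kctd9 ends 2871 bases upstream of Gnrh1 on the same strand and was in 25.7% of endoneurial-like and 14.9% of other mesenchymal-like cells, and whether some Gnrh1 UMIs came from its transcripts was not tested.

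**Figure D3:**
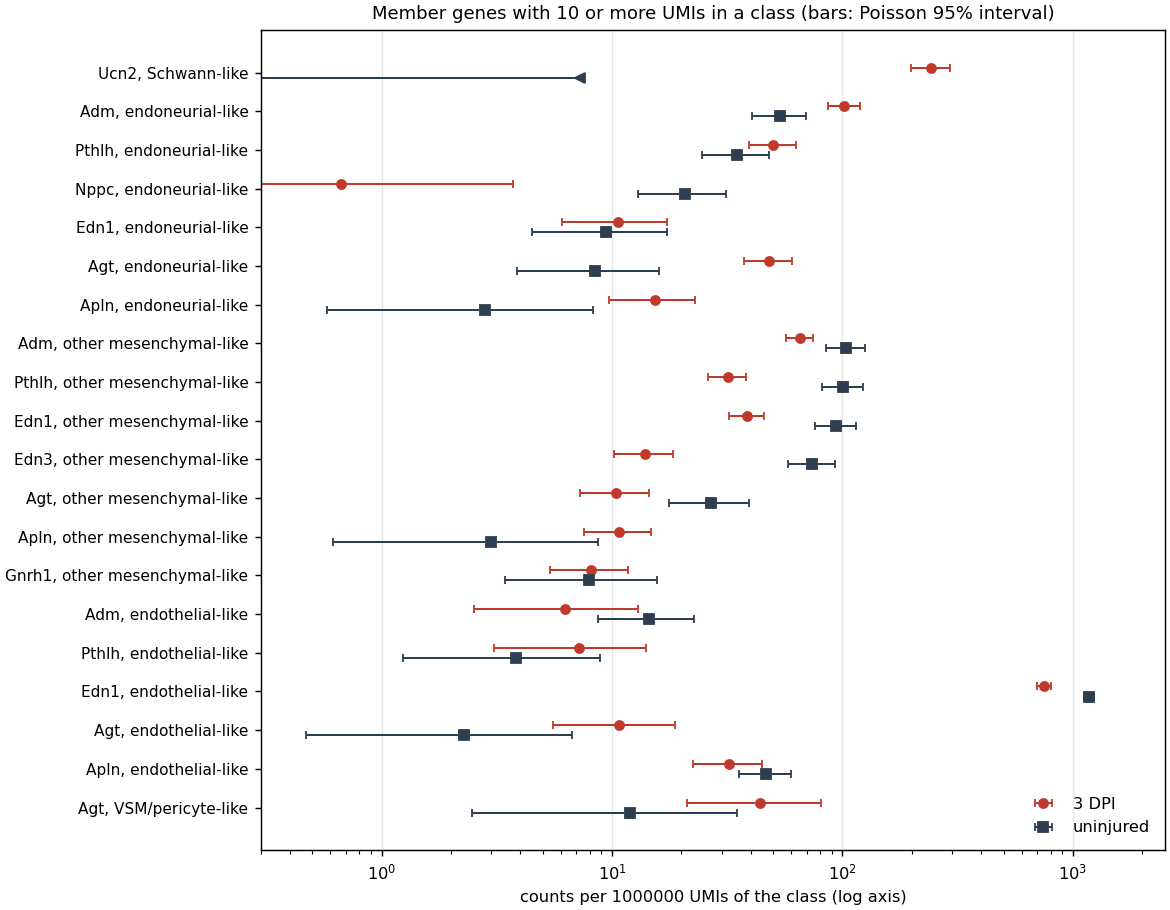
CPM (horizontal log axis) at 3 DPI (circles) and in the uninjured nerve (squares) for each member and class with at least 10 UMIs in the pair of libraries, with Poisson 95% intervals as bars and a left-pointing arrow at the level that a count of 0 allows. Ucn2 in Schwann-like cells and Agt and Apln in endoneurial-like cells lie higher at 3 DPI, and Nppc in endoneurial-like cells and Pthlh and Edn3 in other mesenchymal-like cells lie lower.

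Counted over the members with at least 10 UMIs in a pair of libraries, and with 3-fold as the limit, the adult comparison gave calls in both directions. Since the members were picked with these contrasts known, the counts are descriptions, given beside the share of all genes past the same limit. In Schwann-like cells, 1 member could be compared and it was higher (10.1% of all genes were higher and 8.64% lower). In endoneurial-like cells, 2 of 6 were higher and 1 lower (9.3% and 4.48% of all genes), with a median log2 difference of 0.72 for the members and 0.23 for all genes. In the other mesenchymal-like cells, 1 of 7 was higher and 2 were lower (8.48% and 3.65%), with medians of -1.28 and 0.22. That class joined different clusters in the adult libraries, so levels cannot be told apart from composition there. Agt was the only member called in endothelial-like cells, 1 of 5 (4.99% higher, 3.07% lower), and in VSM/pericyte-like cells, 1 of 1 (7.34% and 6.31%).

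Against the neonatal libraries, endoneurial-like cells at 3 DPI had 3 of 8 members at least 3-fold higher and 2 lower in each pairing. The neonatal endoneurial-like cluster also carried perineurial markers, so these folds do not set like cells against like. Against the sorted library (8.17% of all genes higher, 5.69% lower) the higher ones were Adm, Pthlh and Agt, and against the bead-treated one (7.77% and 6.74%) they were Adm, Edn1 and Agt, while Nppc and Edn3 were lower in both. In the other mesenchymal-like cells, 3 of 7 members were higher than in the sorted library, Edn1, Apln and Gnrh1, each on 1 neonatal UMI (10.1% of all genes higher, 3% lower), while against the bead-treated one Edn1 was higher and Agt lower (9.44% and 3.28%). Edn1 was higher and Apln lower in endothelial-like cells in both pairings (9.46% and 2.88%, then 7.34% and 3.66%), and Adm was also lower against the sorted library, on 7 against 10 UMIs. Ucn2 was the only member past 3-fold in Schwann-like cells, 1 of 2 against the sorted library (7.61% and 7%) and 1 of 5 against the bead-treated one (7.49% and 6.34%). In VSM/pericyte-like cells Agt, the only member with enough UMIs, was lower than in the sorted library at 0.23-fold (0.10 to 0.45; 5.03% and 6.37% of all genes), and at 0.39-fold (0.18 to 0.77) against the bead-treated one it did not reach the limit (5.01% and 5.88%). These comparisons share the 3 DPI library. Between the neonatal libraries themselves, 1 of 5 members was past 3-fold in Schwann-like cells, Edn1 on 2 against 13 UMIs (3.35% of all genes higher and 2.39% lower in the sorted one), with an interval of the ratio from 0.03 to 1.22.

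**Figure D4:**
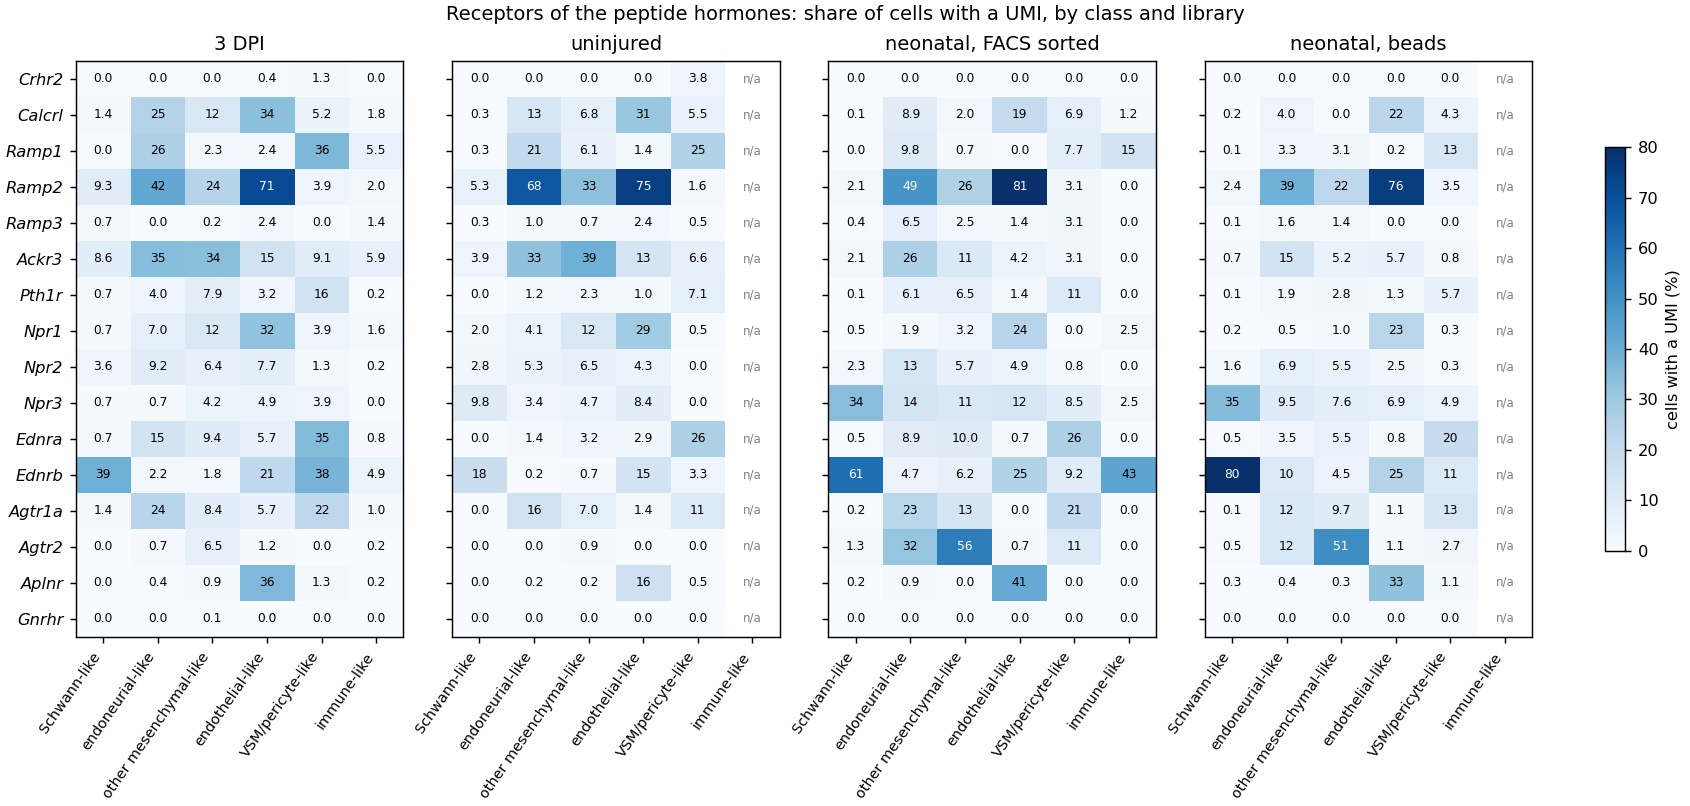
Share of cells with a UMI (percent, number and shade in each cell of the map) of 16 receptors of the peptide hormones, by class (columns) and library (panels), with n/a for classes under 50 cells. Ednrb is highest in neonatal Schwann-like cells at 60.6% and 79.9%, Ramp2 in endothelial-like cells of all libraries, Agtr2 in neonatal other mesenchymal-like cells, and Crhr2 reaches 3.83% in uninjured VSM/pericyte-like cells.

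The receptors of the peptides lay in classes other than the main source in some systems and in the same class in others. For Ucn2, the receptor Crhr2 was met in 7 of 183 VSM/pericyte-like cells of the uninjured nerve (3.83%) and 1 of 77 at 3 DPI (1.30%), and Crhr1, Ucn and Ucn3 had no row in any table. Of the 7 genes of the corticotropin-releasing factor family, Ucn2 alone reached 2% of a class at 3 DPI. For Adm, 6 of 9 genes of the system did so. Calcrl, the receptor core, was in 33.6% of endothelial-like and 24.6% of endoneurial-like cells at 3 DPI, and Ramp2, the partner that makes it bind adrenomedullin, was in 71.3% and 41.9%. Ramp2 in endoneurial-like cells was at 160 CPM at 3 DPI and 637 in the uninjured nerve, a ratio of 0.25 (0.22 to 0.29). The scavenger receptor Ackr3 was in 34.6% of endoneurial-like and 33.9% of other mesenchymal-like cells at 3 DPI. Pth1r, the receptor of Pthlh, was in 15.6% of VSM/pericyte-like cells and 7.89% of other mesenchymal-like cells.

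Among natriuretic receptors, Npr2, which binds the Nppc peptide, was in 9.19% of endoneurial-like cells at 3 DPI, and Npr1 was in 32.4% of endothelial-like cells. Npr3, the clearance receptor, was in 34.1% and 34.9% of sorted and bead-treated neonatal Schwann-like cells and 9.80% of uninjured ones, but in 1 of 140 at 3 DPI, where its level was 0.02-fold (0.0005 to 0.12) of the uninjured one. Of the endothelin receptors, Ednrb was in 39.3% of Schwann-like cells at 3 DPI and 17.6% of uninjured ones, yet at 270 and 404 CPM, so no order of the adult libraries is read from the shares. In VSM/pericyte-like cells Ednrb was in 29 of 77 at 3 DPI and 6 of 183 in the uninjured nerve, at 479 and 55.6 CPM, a ratio of 8.61 (4.92 to 16.3). Ednra was in 35.1% of VSM/pericyte-like cells at 3 DPI, and its level in endoneurial-like cells was 5.16-fold (2.33 to 13.5) of the uninjured one. Ece1, which cuts the endothelin precursors, was in 69.2% of endothelial-like cells at 3 DPI, the main source of Edn1.

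In the angiotensin system, Agt and the receptor Agtr1a were met in the same classes. Agtr1a was in 23.5% of endoneurial-like and 22.1% of VSM/pericyte-like cells at 3 DPI, while Agtr2 was in 56.0% and 51.0% of neonatal other mesenchymal-like cells and 6.47% of those at 3 DPI. Ace, which makes angiotensin II, was in 11.8% of endoneurial-like cells at 3 DPI and 38.0% of uninjured ones, at 28.6 and 217 CPM, a ratio of 0.13 (0.09 to 0.18), in the class where Agt was 5.67-fold higher. Ren1, the renin gene that starts the cascade, had no row at 3 DPI or in the uninjured nerve. Over the 11 genes of the system in endoneurial-like cells, 6 could be compared, of which Agt and Anpep were at least 3-fold higher and Ace at least 3-fold lower (9.3% and 4.48% of all genes). The apelin receptor Aplnr was in 36.0% of endothelial-like cells at 3 DPI, 16.3% of uninjured ones, and 41.0% and 32.8% of sorted and bead-treated neonatal ones. Gnrhr stayed under 2% in every class at 3 DPI.

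Of 13 genes for precursor processing and peptide breakdown, 8 could be compared in Schwann-like and 8 in endoneurial-like cells between the adult libraries, and in each class 1 gene, Furin, was at least 3-fold higher and 1, Mme, at least 3-fold lower at 3 DPI. Of all genes, 10.1% were higher and 8.64% lower in Schwann-like cells, and 9.3% and 4.48% in endoneurial-like cells. Furin, a proprotein convertase, was in 22.9% of Schwann-like cells at 3 DPI and 2.52% of uninjured ones, at 102 and 24.2 CPM, a ratio of 4.24 (2.11 to 9.42). In endoneurial-like cells its ratio was 3.27 (2.20 to 4.99). Mme, or neprilysin, which breaks down several of the peptides, was on 2 UMIs against 27 in Schwann-like and 3 against 23 in endoneurial-like cells.

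By likeness of profile over the same 22 points, the members fell near genes of different classes. Adm was nearest to Rbp4 (r = 0.874), Nucb2 (0.872) and Sec16b (0.862), Pthlh to Serpinf1 (0.946), Igfbp6 (0.931) and Nova1 (0.927), and Nppc, after Col9a2, to A230065H16Rik (0.900) and Vstm2a (0.886). Edn1 was nearest to Galnt15 (0.986), Abcb1a (0.963) and Plvap (0.962), and Apln to Exoc3l (0.952), Aqp7 (0.938) and Gpihbp1 (0.935). Edn3 was nearest to Svep1 (0.942), Sema3d (0.927) and Tmeff2 (0.924). The lowest coefficients were those of Agt, with Cacng7 (0.829), Galnt16 (0.821) and Parm1 (0.821), and of Gnrh1, with Lepr (0.773), Gli2 (0.755) and Col8a1 (0.738).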

How the data were processed

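Drop-seq counts of 4 mouse sciatic nerve libraries were analysed. The authors deposited UMI counts per gene and cell, made as the Drop-seq Alignment Cookbook describes, with mm10 as the build per the submitters' processing notes. The sources used here name neither an aligner version nor an annotation. The tables held 2500 (3 DPI), 2000 (uninjured), 2500 (neonatal, sorted) and 6200 (neonatal, beads) barcodes and 8123103, 4513814, 5110171 and 7634799 UMIs. Cells with under 200 genes, over 10% mitochondrial or over 5% hemoglobin UMIs were removed, as were the 5% (ties included) with the highest Scrublet doublet scores (scanpy 1.11.5).

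Counts were normalized with scran 1.30.0 and clustered with Seurat 5.3.0 (R 4.3.3), the neonatal libraries together, with ligands and receptors kept out of the variable genes. Clusters were named from marker lists, with score limits set after the clusters were seen. Other steps used Python 3.11.15 and scipy 1.17.1. Shares have exact Clopper-Pearson intervals and CPM of summed UMIs exact Poisson ones, at 95%; a count of 0 was set to 3 UMIs for a fold. Folds needed 10 UMIs in the pair of libraries. For depth, cells were thinned to 500 UMIs, leaving out shallower ones (16 of 140 Schwann-like and 20 of 272 endoneurial-like cells at 3 DPI). Likeness is Pearson's r of log2(CPM + 10) over 22 profiles, for genes with 50 UMIs. The fold rule was tested on simulated data. Gene positions come from GENCODE on GRCm38, the assembly of mm10. The members and all gene lists were chosen with earlier results of these data known. The text names the members, the 3 genes most like each, and receptors and processing genes from the lists. One gene of a list is not reported here.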

Additional observations from a re-analysis of the deposited data

How the results depend on the processing

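Each member's share in its main class at 3 DPI, and in the other libraries, was recomputed with clustering at resolution 0.8, at least 500 genes per cell, a 5% mitochondrial limit, no doublet removal, library size scaling, ligands and receptors among the variable genes, and classes from each cell's own markers. Of 36 shares, between 30 and 36 stayed within their intervals under each of these. At 3 DPI the exceptions were Edn1 in endothelial-like cells, at 60.0% with 500 genes, and Nppc in endoneurial-like cells, at 0% with own-marker classes. Thinning to 500 UMIs lowered the 3 DPI shares by construction, to 8.87% (Ucn2), 4.76% (Adm), 1.98% (Pthlh), 0% (Nppc), 28.0% (Edn1), 0.480% (Edn3), 1.59% (Agt), 0.794% (Apln) and 0.840% (Gnrh1). The Pthlh ratio in endoneurial-like cells, 1.44 by CPM, reversed to 0.680 by thinned shares; the cause was not tested. By thinned shares the ratio of Ucn2 in Schwann-like cells moved from at least 33.5 to at least 10.1 and that of Edn1 in endothelial-like cells from 0.63 to 0.915, and the other 4 ratios stayed within their intervals. Nppc and Apln gave no thinned ratio there, since the counts were too near the 3 counts set for a 0 to give one. Members highest in a mesenchymal-like class numbered 7 by share and 5 by CPM at 3 DPI. With 1 library per group, differences between animals could not be separated from those between libraries, and rare transcripts were limited by depth. No paired analysis was possible because each group is 1 library and no test was run.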
